A study of Mus musculus with 12 samples.

Results

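The comparison described here sets the Actr3 knockout line treated with ciliobrevin D against the control line of the same cells. The labels put 6 samples in these groups, of 12 in the series. The comparison used 6 libraries, 3 of the treated Actr3 KO line and 3 of the control, 1 of which matches no sample title. The cells are mIMCD3, a line of mouse kidney cells derived from the inner medullary collecting duct, and their polyadenylated RNA was sequenced. Control cells are labelled wild type control, and the knockout is labelled as the line Actr3 KO-1. All cells were kept for 48 h to reach confluence in medium with 10% fetal calf serum and 5 mM HEPES, followed by 24 h without serum. Treated cells received 0.5 µM ciliobrevin D in the starvation medium. The protocol names a solvent control without saying which samples received it. Untreated Actr3 KO (3 libraries) is given beside many of the results for the level of the line without the agent. A result given without it does not show whether the untreated line differed in the same way. Untreated Actr3 KO is set against the same control libraries, so the 2 sets of fold changes are not independent.

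The comparison joins 2 differences, the knockout line and the agent, which cannot be told apart in it. The knockout is 1 line, so that line and its genotype cannot be told apart either. For the control the labels give the single line Control 1, but the header of 1 control column names a control line 2. That header fits none of the sample titles, and the title of control replicate 2 is left without a column. Whether the control group holds 1 line or 2 is therefore not known; that library is used as a control without a replicate number, and 8286 genes were called in the comparison when it was left out. The labels leave unsaid whether replicates were grown as separate cultures. The p-values therefore measure only the spread between libraries of a group, which can be technical. That spread was estimated from all 12 libraries of the series together. A fit of only the 6 libraries compared called 8642 genes. Libraries held 37001577 to 38077987 recovered reads in control, 28902562 to 32544817 in treated Actr3 KO and 31425219 to 34977447 in untreated Actr3 KO. The share of reads in the 10 most read genes was 5.18% to 5.90% in control and 9.05% to 10.1% in treated Actr3 KO. Values below are the deposited normalized values, which are not corrected for gene length, so levels are compared between groups and not between genes. Per-library values of the control are given in the order replicate 1, library without a number, replicate 3, and those of the other groups in the order of their replicate numbers. Fold changes compare log2(value + 1), which makes the change of low genes look smaller than it is, and carry the SE of limma.

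ACTR3 is one of the actin-related subunits of the Arp2/3 complex, which starts new actin filaments as branches from existing ones under the control of WASP and WAVE proteins. Ciliobrevin D inhibits cytoplasmic dynein, the motor that carries cargo toward the minus ends of microtubules and brings intraflagellar transport trains back from the tip of the primary cilium. The collecting duct epithelium carries such a cilium on most of its cells, and actin and dynein both act on how it forms.

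Of 13593 genes tested, 8993 (66.2%) differed between treated Actr3 KO and control (limma, Benjamini-Hochberg adjusted p under 0.05), 4550 higher (33.5%) and 4443 lower (32.7%). At least 2-fold differences were fewer: 1382 genes (10.2%), of which 790 (5.81%) were higher and 592 (4.36%) lower. The groups did not overlap for 9326 genes (68.6%). Untreated Actr3 KO differed from the same control in 9595 genes (70.6%), 4669 higher (34.3%) and 4926 lower (36.2%), with 1570 at least 2-fold apart (11.6%), 736 higher (5.41%) and 834 lower (6.14%). With calls this common, the counts for each gene list below are read against these shares. The median over all genes was 0.01 in treated and -0.01 in untreated Actr3 KO.

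**Figure D1:**
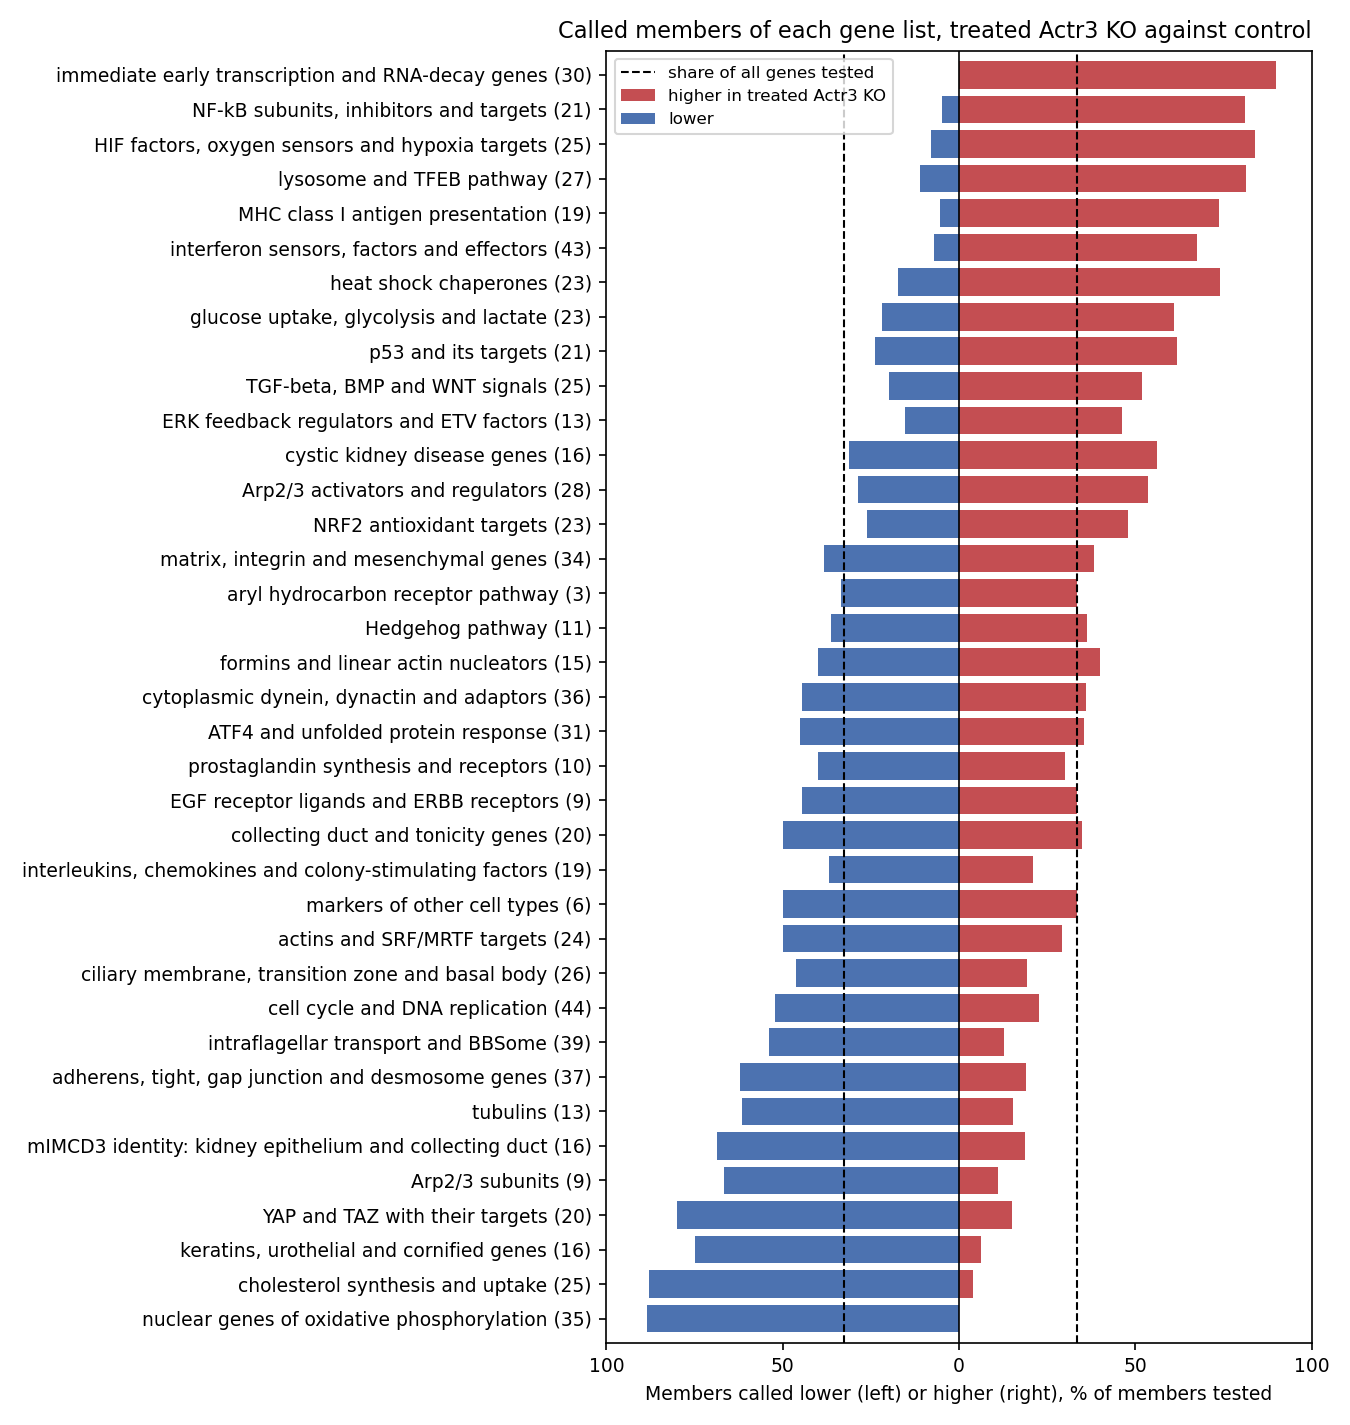
Bars give, for each gene list, the percent of tested members called higher (right, red) or lower (left, blue) in ciliobrevin D-treated Actr3 KO against control, with the number tested in brackets; dashed lines mark the shares over all genes tested, 33.5% and 32.7%. Immediate early, NF-kB, hypoxia and lysosome genes reach furthest to the right, and genes of oxidative phosphorylation and cholesterol synthesis furthest to the left.

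Actr3, the edited gene, lies at 125392905 to 125435727 on chromosome 1 (GRCm38; Entrez 74117) and had 8101, 8664 and 8243 in the control libraries, 1399.5, 1562 and 1759 in treated Actr3 KO and 1347, 1145 and 1163 in untreated Actr3 KO. The treated libraries all lay far below the control ones (log2 fold change -2.41 ± 0.07, SE, limma adjusted p = 4.96e-16). Ift88, an intraflagellar transport gene that is edited in another line of the series but not in these, had 457 ± 14.9 in control (SD, n = 3) and 438 ± 4.29 in treated Actr3 KO, and its groups overlapped (log2 fold change -0.06 ± 0.07, 95% interval -0.21 to 0.09, adjusted p = 0.483). In untreated Actr3 KO it had 617 ± 34.2.

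Most other subunits of the Arp2/3 complex were lower in treated Actr3 KO than in control, by less than Actr3. Of 10 listed, with Actr3 itself counted, 9 passed the filter on low values. Among these 9, 6 fell, Actr3 included, and 1 rose, with a median log2 fold change of -0.24. All 9, again with Actr3, were lower in untreated Actr3 KO, with a median of -0.63. Arpc3 had 5322, 5786 and 5378 in control, 3675, 4036 and 3469.7 in treated and 2602, 2971 and 2499 in untreated Actr3 KO (-0.56 ± 0.07, adjusted p = 2.31e-07). The treated libraries of Arpc3 lay below all control libraries, and the untreated mean was lower again. Arpc4, on chromosome 6, had a log2 fold change of -0.77 ± 0.05, or -0.34 once the median of each chromosome had been removed, and Arpc5l one of -0.30 ± 0.05. Arpc2, the subunit with the highest value, went from 10119 ± 231 in control to 10388 ± 242, which was not called (adjusted p = 0.513), against 6524 ± 284 in untreated Actr3 KO. The member that rose was Arpc1b (0.26 ± 0.06); it is outside the naming rule and was chosen after its values were seen.

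Regulators of the complex moved in both directions. Of 28 tested of 32 activators and regulators, 15 rose and 8 fell (median 0.16), against 6 and 14 in untreated Actr3 KO (median -0.15). The activators Whamm and Jmy rose, Whamm from 414 ± 25 to 640.1 ± 3.28 and Jmy from 3016 ± 61 to 4643 ± 129. The WAVE complex subunits Brk1 (on chromosome 6, from 2752 ± 11.1 to 1372 ± 60.4) and Wasf1 (from 850.4 ± 35.7 to 564 ± 10.6) fell; the log2 fold change of Brk1 was -1.0, or -0.57 with chromosome medians removed. Rac1, the small GTPase that switches the WAVE complex on, had 12329.8 ± 297 in control and 11481 ± 892 in treated Actr3 KO and was not called (adjusted p = 0.126); it was called without treated replicate 2, at -0.17 (adjusted p = 0.0233), and after TMM rescaling, at -0.14 (adjusted p = 0.0461). Its untreated level was 6924 ± 342.

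Formins and other linear actin nucleators, which build unbranched filaments, split evenly: of 15 tested of 16, 6 rose and 6 fell (median -0.06). Each direction held 40% of the list, beside 33.5% higher and 32.7% lower over all genes tested. In untreated Actr3 KO 5 were higher and 4 lower. Inf2 rose from 2807 ± 322 to 4508 ± 195 and Daam1 from 1509 ± 15.3 to 2342 ± 83.5. Fmn1 fell from 3264 ± 119.5 to 2079 ± 96.3 and Fhod1 from 2476 ± 132 to 1766 ± 35.7. Fmnl3 was lower by a small step (-0.15 ± 0.05, adjusted p = 0.0164), a call lost without the control library that has no number (-0.14, adjusted p = 0.0539) and without treated replicate 3 (-0.13, adjusted p = 0.0505).

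Actin itself was lower. The cytoplasmic actins Actb and Actg1 are the main building blocks of the filaments. Actb had 71547, 69632 and 67392 in control and 36541, 37454 and 32826 in treated Actr3 KO, and Actg1 fell from 20200.1 ± 711 to 9178 ± 749.9 (log2 fold changes -0.97 ± 0.07 and -1.14 ± 0.06). Untreated Actr3 KO had 28084 ± 702 for Actb and 10462 ± 431 for Actg1. Of the 24 actins and targets of SRF and MRTF tested, of 26, 12 fell and 7 rose (median -0.27). In untreated Actr3 KO 11 were lower and 6 higher (median -0.17). Fhl2 fell from 2539 ± 146 to 1525 ± 104, whereas Filip1l rose from 1909 ± 202 to 3758 ± 234. The non-muscle myosin heavy chain Myh9 had 53175 ± 5345 and 51964 ± 1846 and was not called (adjusted p = 0.765), except after quantile normalization (-0.19, adjusted p = 0.0429).

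YAP, TAZ and their targets, which respond to cell shape and tension, were mostly lower, 16 of 20 fell and 3 rose (median -0.40). In untreated Actr3 KO 12 were lower and 6 higher (median -0.29). Ccn1, a secreted matricellular target, had 25949.5, 31602 and 33143 in control, 12178, 11759.6 and 12028 in treated and 19379.7, 18153 and 20389.8 in untreated Actr3 KO. The 3 groups of Ccn1 values did not overlap, and the treated libraries were the lowest. The kinase gene Nuak2 fell to 1177 ± 326 from 3402 ± 121 in control, while untreated Actr3 KO had 5131 ± 332. The factor Tead4, on chromosome 6, fell from 973 ± 68.2 to 448 ± 43 (log2 fold change -1.12 ± 0.08, or -0.69 with chromosome medians removed). In the other direction Nt5e, an ectonucleotidase, rose from 17.4 ± 1.62 to 88.8 ± 6.78. The phosphatase Ptpn14, the list's highest gene by value, was called lower at -0.24 ± 0.08 (adjusted p = 0.0113); the call was lost without control replicate 1 (-0.15, adjusted p = 0.0968) and without treated replicate 3 (-0.18, adjusted p = 0.0758).

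Genes of the motor that ciliobrevin D inhibits, and of its partners, moved in both directions. Of those called, only the adaptor Bicdl1 moved by at least 2-fold. Of 36 tested of 38 genes of cytoplasmic dynein, dynactin and their adaptors, 13 rose (36.1%) and 16 fell (44.4%), with a median of -0.08. Over all genes tested 33.5% rose and 32.7% fell. In untreated Actr3 KO 10 genes of the list were higher and 17 lower. The heavy chain Dync1h1, which holds the motor domain, had 30217, 22992 and 24752 in control, 36180.4, 37254 and 35082 in treated and 35391, 37973 and 45231 in untreated Actr3 KO (log2 fold change treated against control 0.49 ± 0.09, adjusted p = 0.000112). It was higher in every treated library than in any control library. The adaptor Bicdl1 rose from 637 ± 36.8 to 1420.2 ± 117 and the dynein regulator Ndel1 from 1716 ± 91.1 to 2898 ± 205; in untreated Actr3 KO these had 535 ± 53.3 and 1525 ± 54. Of dynactin, Actr1a, which forms its short filament, fell from 5931 ± 235 to 4005 ± 106, and Capza2, which caps that filament and lies on chromosome 6, from 2509 ± 243 to 1611 ± 115 (log2 fold change -0.64 ± 0.08, or -0.20 with chromosome medians removed). Of 13 tubulins, among them the gamma tubulins Tubg1 and Tubg2, 8 fell and 2 rose (median -0.33). In untreated Actr3 KO 11 were lower and none higher (median -0.60). The gamma tubulin Tubg1 fell from 3641 ± 269 to 1976 ± 123 and Tuba1a from 576 ± 46.9 to 408 ± 55, while the low Tubb4a rose from 24.6 ± 9.55 to 54.2 ± 13.6. Tubg2 fell from 56.6 ± 7.29 to 23.2 ± 7.6. Tubulin genes are close in sequence, and reads shared between them make their counts uncertain. Tubb5 was called lower at -0.13 ± 0.05, a call lost in several fits, among them those without the unnumbered control library (adjusted p = 0.104), without control replicate 3 (0.0569) and without treated replicate 3 (0.204).

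Genes of the primary cilium were more often lower than higher. Of 39 intraflagellar transport and BBSome genes, 21 fell and 5 rose (median -0.21); with the members on chromosome 6 left out, an alternative chosen after seeing the data, 18 of 36 fell and 5 rose. The count of higher members was 3 without the unnumbered control library, without control replicate 3 or without treated replicate 1. Untreated Actr3 KO had 19 higher and 11 lower members (median 0.14). The transport adaptor Tulp3 fell from 1486 ± 115 to 702 ± 17.9 and the train subunit Ttc26 from 787 ± 25.7 to 404 ± 17.4, both on chromosome 6. Their log2 fold changes were -1.08 ± 0.06 and -0.96 ± 0.07, or -0.65 and -0.53 with chromosome medians removed. Ift22, another train subunit, had 959, 1062 and 896 in control and 540.3, 593 and 486 in treated Actr3 KO. Ift80, the list's highest gene by value, fell from 3188 ± 128 to 2718 ± 30.5, and the ciliary kinesin Kif17 rose from 31.9 ± 4.17 to 64.4 ± 3.66. Of 26 genes of the ciliary membrane, transition zone and basal body, 12 fell and 5 rose (median -0.15). In untreated Actr3 KO 7 were lower and 11 higher (median 0.04). The transition zone genes B9d1 (from 598 ± 25.1 to 339.9 ± 34.9) and Tctn2 (from 2487 ± 71.2 to 1413 ± 33.9) fell. Ehd1, which acts in the early ciliary vesicle, fell from 4400.5 ± 197 to 3105 ± 245, and Ttbk2, the kinase that starts cilium assembly at the mother centriole, rose from 1310.5 ± 81.1 to 2466 ± 10.1.

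Hedgehog signals are read in the cilium. Of 18 listed genes of that pathway 11 were high enough to test, and 4 rose and 4 fell (36.4% each). Over all genes tested 33.5% rose and 32.7% fell. In untreated Actr3 KO 6 genes of the list were higher and 2 lower. The co-receptor gene Gas1 had 3126, 3241 and 3198 in control and 1408, 1238 and 1189.5 in treated Actr3 KO, with 3082, 3032 and 3305 in untreated Actr3 KO. The treated libraries stood apart from the other 6. Cdon, another co-receptor, fell from 2471 ± 76.2 to 1538 ± 151 with 2555 ± 188 untreated, the signal transducer Smo, on chromosome 6, from 3950.3 ± 167 to 2389 ± 139 (-0.73 ± 0.06, or -0.29 with chromosome medians removed), and the transcription factor Gli2 from 147 ± 9.59 to 84.5 ± 3.9. Evc, which acts beside Smo at the base of the cilium, was not called (-0.06 ± 0.05, adjusted p = 0.273), except after quantile normalization (-0.14, adjusted p = 0.0209). The members that rose were Gpr161, Kif7, Evc2 and Gli3, outside the naming rule.

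Chaperone genes of the heat shock response were mostly higher in treated Actr3 KO than in control. Heat shock factor binds repeated GAA units in front of these genes, and their products refold damaged proteins or hold clients of HSP90. The promoters of the 3 listed chaperone genes with the largest rise, a group mean of 50 or more and an entry in the RefSeq promoter table (GRCm38.p6) are shown for their heat shock element core. Each run is the 250 bases before the start site, 5′ to 3′ on the gene's strand, with matches to GAANNTTC, a palindrome that reads the same on both strands, in capitals. The windows are chr17:34959239-34959488 on the minus strand for Hspa1b, chr17:34972157-34972406 on the minus strand for Hspa1a and chr8:83607925-83608174 on the plus strand for Dnajb1.
Hspa1b: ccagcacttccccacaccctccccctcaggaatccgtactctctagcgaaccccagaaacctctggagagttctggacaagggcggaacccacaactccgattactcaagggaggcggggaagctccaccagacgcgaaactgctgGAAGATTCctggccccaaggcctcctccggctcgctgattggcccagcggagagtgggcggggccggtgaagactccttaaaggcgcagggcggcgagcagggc
Hspa1a: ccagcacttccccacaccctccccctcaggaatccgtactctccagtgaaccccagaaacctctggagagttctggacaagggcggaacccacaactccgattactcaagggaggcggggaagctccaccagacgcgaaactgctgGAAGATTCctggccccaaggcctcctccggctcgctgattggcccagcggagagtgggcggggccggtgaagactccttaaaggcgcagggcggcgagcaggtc
Dnajb1: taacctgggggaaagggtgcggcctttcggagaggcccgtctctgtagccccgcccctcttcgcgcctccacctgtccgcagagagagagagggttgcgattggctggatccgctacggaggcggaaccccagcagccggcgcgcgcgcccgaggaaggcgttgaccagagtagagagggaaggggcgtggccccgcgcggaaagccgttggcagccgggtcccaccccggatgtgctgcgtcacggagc
The windows of Hspa1b and Hspa1a were identical at 247 of 250 positions, each with 1 match that begins 104 bases before the start, and the Dnajb1 window held none. Of 18 listed chaperone genes with an entry, 6 held the core, as did 6.79% of all 27025 promoters of this length. A match is a description of the letters only, and a window without one says nothing about the factor.

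Of 23 chaperone genes, 17 rose and 4 fell (median 0.47), and 7 rose at least 2-fold. In untreated Actr3 KO all 23 were lower than in control (median -0.77). Hspa1b, an inducible HSP70 gene, had 8357, 9578 and 9624 in control, 42517, 40036 and 52128 in treated and 2362, 2589 and 2852 in untreated Actr3 KO (log2 fold change treated against control 2.28 ± 0.09, adjusted p = 1.69e-14). The 3 groups did not overlap, with the treated libraries highest and the untreated ones lowest. Hspa1a, its near-identical copy, rose from 321 ± 45.8 to 1372 ± 247; reads that fit both copies make the division between them uncertain. The inducible HSP90 gene Hsp90aa1 had 38322, 38029.6 and 44629 in control and 118391, 153350.0 and 192402 in treated Actr3 KO, and its treated values spread widely, each still above every control value. The HSP40 gene Dnajb1, a partner of HSP70, rose from 3068 ± 193 to 9278 ± 1233, with 1942 ± 156 untreated. The constitutive HSP90 gene Hsp90ab1 was higher by 0.44 ± 0.09 (adjusted p = 0.000253); after quantile normalization its sign turned, to -0.27 (adjusted p = 0.00164), while its deposited values were 128021, 125628 and 122562 in control and 157983, 170445 and 182170.0 in treated Actr3 KO. The 4 members that fell were the heat shock factors Hsf1 and Hsf2, Cryab and Fkbp4, the last on chromosome 6; these were named after their values were seen. Their number was 2 without the unnumbered control library.

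**Figure D2:**
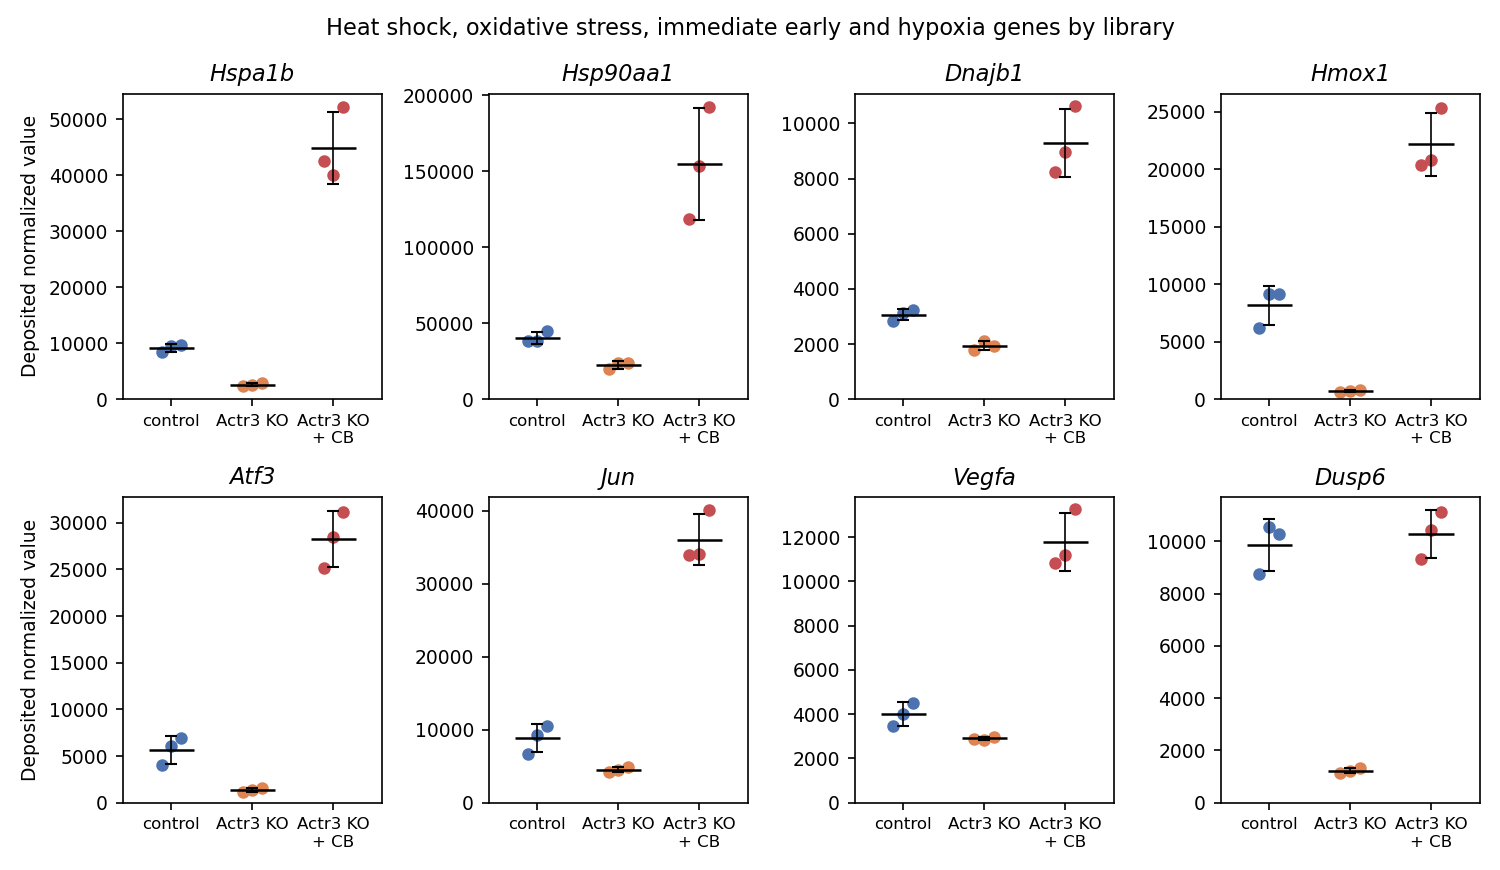
Each panel plots the deposited normalized value (y axis, linear from 0) of 1 gene in the 3 libraries of control, untreated Actr3 KO and treated Actr3 KO (+ CB); points are libraries, the wide line is the mean and the bars are SD. Treated libraries lie above both other groups in 7 panels, and in the panel of Dusp6 they overlap the control.

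Immediate early genes, which cells transcribe within minutes of growth factor or stress signals, rose almost as a block. Of 30 tested of 31 transcription and RNA-decay genes, 27 rose, none fell and 3 were not called (median 0.82); 10 rose at least 2-fold. Untreated Actr3 KO had 29 lower and none higher (median -1.0). Atf3, a stress-induced repressor, had 3997, 6036 and 6936 in control and 25167, 28452 and 31136 in treated Actr3 KO, against 1105, 1366 and 1608 untreated (log2 fold change 2.35 ± 0.14, adjusted p = 1.09e-11). Jun, a subunit of AP-1, had 6718, 9247 and 10500.2 in control and 33969.8, 34036 and 40058 in treated Actr3 KO, with an untreated mean of 4505 ± 328. Every treated value of both genes was above the highest control value. The transcription factor Klf2 rose from 559 ± 31.8 to 2415 ± 53.5 and the antiproliferative gene Btg2 from 2787 ± 484 to 7859.8 ± 1083. Of 23 listed promoters with an entry, 1 held the CRE (TGACGTCA) and none the AP-1 site (TGACTCA), which were in 1.60% and 4.43% of all promoters of this length.

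ERK feedback genes were near control. These phosphatases and Sprouty proteins are transcribed when the ERK kinases are active and dampen them. Of 13 ERK feedback regulators and ETV transcription factors, 6 rose, 2 fell and 5 were not called (median 0.11). Untreated Actr3 KO had 12 lower (median -2.46). Dusp6 had 8732, 10555 and 10289.9 in control, 9306, 10415 and 11109 in treated and 1125, 1209.5 and 1328 in untreated Actr3 KO. Treated and control libraries of Dusp6 overlapped (log2 fold change 0.06 ± 0.07, 95% interval -0.09 to 0.21, adjusted p = 0.476). Dusp4 rose above control, from 2961 ± 278 to 5275 ± 628, with 492 ± 30.7 untreated. Spry2 rose from 898 ± 137 to 1258 ± 149 and Spred3 from 749 ± 14.3 to 1182 ± 128, while Dusp5 fell from 1254 ± 58.6 to 977 ± 43.1, with 227 ± 15.8 untreated. Upstream, of 9 tested EGF receptor ligands, receptors and regulators of 12, 3 rose and 4 fell, against 4 and 4 in untreated Actr3 KO. The receptor gene Egfr had 13734, 13805 and 15558 in control, 9585, 8583 and 8591 in treated and 20551, 19904 and 23381 in untreated Actr3 KO. The treated group was lower and the untreated group higher than control, with no overlap. The ligand Tgfa, on chromosome 6, fell from 2177 ± 96 to 1132 ± 59.6 (-0.94 ± 0.06, or -0.51 with chromosome medians removed), and the ligands Egf and Btc rose, from 51.9 ± 10.7 to 113 ± 19.2 and from 94.3 ± 12.4 to 171 ± 33.1.

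Other stress programs were mixed. Of 23 NRF2 antioxidant targets, 11 rose and 6 fell (median 0.28), and in untreated Actr3 KO 21 were lower (median -1.14). Heme oxygenase 1 (Hmox1), which breaks down heme, had 6232, 9133 and 9186 in control, 20427, 20803 and 25369 in treated and 609.8, 742 and 805 in untreated Actr3 KO. The untreated values lay far below control and the treated ones far above it. Gclc, the catalytic subunit of the enzyme that starts glutathione synthesis, rose from 4561 ± 158 to 10918 ± 1420.2, the sulfiredoxin Srxn1 from 1481 ± 89.7 to 3362 ± 159.8, the glutathione transferase Gsta4 from 202 ± 36.7 to 376 ± 62.8 and the ferritin heavy chain Fth1 from 21375 ± 1067 to 25915 ± 741. The antioxidant response element (TGACNNNGC) was in 4 of 19 listed promoters with an entry and in 10.1% of all promoters.

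Among 31 ATF4 and unfolded protein response genes, 11 rose and 14 fell (median -0.06, mean 0.05). In untreated Actr3 KO 3 were higher and 17 lower (median -0.18). The proapoptotic factor Ddit3 (CHOP) had 898, 1016 and 1011 in control, 3119, 3515 and 3976 in treated and 1088, 1006 and 1007 in untreated Actr3 KO. Its treated values alone stood apart. The eIF2α phosphatase subunit Ppp1r15a rose from 2318 ± 318 to 4828 ± 486 and the ER co-chaperone Dnajb9 from 1716 ± 339.9 to 3978 ± 346. The mitochondrial folate enzyme Mthfd2, on chromosome 6, fell from 3106 ± 41.5 to 1520.0 ± 145 (-1.03 ± 0.07, or -0.60 with chromosome medians removed). Hsp90b1, the ER member of the HSP90 family, was not called (-0.05 ± 0.07, adjusted p = 0.55), except after quantile normalization (-0.18, adjusted p = 0.0203). Of 21 tested of 22 p53 genes, 13 rose and 5 fell (median 0.23), against 3 and 14 in untreated Actr3 KO (median -0.40). Of the 5 that fell in treated Actr3 KO, 2 are on chromosome 6. Trp53inp1 rose from 778 ± 52.9 to 2449 ± 566, the p53 ubiquitin ligase Mdm2 from 3932 ± 220.1 to 8774 ± 1828, the BH3-only gene Bbc3 from 657 ± 69.4 to 1252 ± 65.8 and cyclin G1 (Ccng1) from 1435 ± 80.2 to 2640.4 ± 449.6. Gdf15 was called lower by -0.19 ± 0.08 (adjusted p = 0.0383) although its groups overlapped, and the call was lost in several fits, among them those without the unnumbered control library (adjusted p = 0.155), control replicate 3 (0.190), treated replicate 1 (0.148) or treated replicate 2 (0.07596). Of the aryl hydrocarbon receptor pathway 3 of 8 genes were tested. Tiparp, a target of that receptor, rose from 1693 ± 62.6 to 2372 ± 88.8 and Cyp1b1, another, fell from 2886 ± 67.8 to 2384 ± 159; Cyp1a1 had 0 reads in all 3 groups, and 2 members were lower without treated replicate 1.

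Hypoxia genes were higher in treated Actr3 KO. HIF is held down by prolyl hydroxylases when oxygen is plentiful, and it binds ACGTG in front of its targets. Chosen in the same way, the promoters of 3 list members are shown with that core in capitals (either strand): chr12:54203875-54204124 on the minus strand for Egln3, chr17:46032378-46032627 on the minus strand for Vegfa and chr11:54100674-54100923 on the plus strand for P4ha2.
Egln3: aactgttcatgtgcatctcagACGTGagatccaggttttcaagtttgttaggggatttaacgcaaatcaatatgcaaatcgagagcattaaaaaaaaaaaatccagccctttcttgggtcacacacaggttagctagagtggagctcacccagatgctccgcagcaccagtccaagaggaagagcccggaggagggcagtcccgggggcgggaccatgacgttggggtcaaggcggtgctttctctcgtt
Vegfa: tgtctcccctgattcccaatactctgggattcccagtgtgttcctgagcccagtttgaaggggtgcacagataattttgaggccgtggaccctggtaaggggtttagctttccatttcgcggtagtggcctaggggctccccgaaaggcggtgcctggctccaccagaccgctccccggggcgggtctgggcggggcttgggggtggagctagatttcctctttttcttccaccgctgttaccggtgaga
P4ha2: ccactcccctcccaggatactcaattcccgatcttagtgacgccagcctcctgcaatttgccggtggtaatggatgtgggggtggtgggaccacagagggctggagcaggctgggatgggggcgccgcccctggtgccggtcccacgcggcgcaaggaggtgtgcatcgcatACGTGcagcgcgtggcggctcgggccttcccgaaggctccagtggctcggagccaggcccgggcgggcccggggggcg
The core was found once in the windows of Egln3 and P4ha2 and not in that of Vegfa. It was in 11 of 22 listed promoters with an entry and in 16.5% of all promoters of this length.

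Of 25 tested of 26 HIF factors, oxygen sensors and hypoxia targets, 21 rose and 2 fell (median 0.74), and 9 rose at least 2-fold. Untreated Actr3 KO had 3 higher and 16 lower (median -0.73). Vegfa, the endothelial growth factor, had 3457, 4015 and 4524 in control, 10845, 11177 and 13287 in treated and 2898, 2842 and 2977 in untreated Actr3 KO. The prolyl hydroxylase Egln3 had 96.3, 125 and 106 in control and 378, 401 and 382 in treated Actr3 KO (log2 fold change 1.83 ± 0.10, adjusted p = 4.22e-12). Epas1, which encodes HIF-2α, rose from 116 ± 4.5 to 353 ± 56.8. In each of these 3 genes the treated libraries were above all the others. P4ha2, a collagen prolyl hydroxylase, rose from 4482 ± 589.7 to 13295 ± 2528; it is named for its promoter, after its values were seen. Ndrg1, the list's highest gene by value, rose from 15189 ± 981 to 30042 ± 2853, against 7638 ± 493 untreated. Ak4, a mitochondrial adenylate kinase and itself a hypoxia target, went the other way: it had 461 reads in control and 1 in treated Actr3 KO, so that control was 346 times higher (exact 95% interval from the counts, 61.8 to 13697); untreated Actr3 KO also had 1 read. Such intervals cover counting error only. The count of lower members in this list was 1, in place of 2, without the unnumbered control library or treated replicate 3.

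Glycolysis genes, many of them HIF targets, were also more often higher. Of 23 tested of 24, 14 rose and 5 fell (median 0.21); with the 5 members on chromosome 6 left out, 12 of 18 rose and 2 fell. Untreated Actr3 KO had 1 higher and 18 lower (median -0.85). Phosphofructokinase Pfkp had 1746, 1694 and 1818 in control, 4438, 4859 and 5479 in treated and 1874, 1632 and 1796 in untreated Actr3 KO. The pyruvate dehydrogenase kinase Pdk1 rose from 1974 ± 224 to 4899 ± 390.3 and enolase 2 (Eno2), on chromosome 6, from 1189.5 ± 57.2 to 2992 ± 736. Pyruvate kinase (Pkm) had 69819 ± 3918 and 72458 ± 3814, not called (adjusted p = 0.544), and 38703 ± 1490.3 untreated. The lactate exporter Slc16a3 was close to silent in both knockout groups, with 930.4, 1146 and 1159 in control, 26.5, 30.9 and 27.8 in treated and 24.8, 26.9 and 37.3 in untreated Actr3 KO. The count of lower members fell from 5 to 3 without the unnumbered control library or treated replicate 1.

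Nuclear genes of oxidative phosphorylation moved in the opposite direction: of 35 tested of 36, 31 fell and none rose (median -0.53). Untreated Actr3 KO had 26 lower and 2 higher (median -0.39). The 4 with the lowest fold changes, the complex I genes Ndufa5, Ndufa9 and Ndufa4 (whose product is also placed in complex IV) and cytochrome c (Cycs), are all on chromosome 6, whose genes were lower as a whole, as described below. Ndufa5 had 1375, 1396 and 1476 in control and 562, 541 and 495 in treated Actr3 KO. Ndufa4 fell from 6619 ± 644 to 2531 ± 38.5, Cycs from 2705 ± 219.6 to 1164 ± 42.6 and Ndufa9 from 3074 ± 26.7 to 1485 ± 53.3. With chromosome medians removed, Cycs went from a log2 fold change of -1.21 ± 0.08 to -0.78 and Ndufa9 from -1.05 ± 0.05 to -0.62. Without these 4 members, 27 of 31 fell and none rose, with a median of -0.52. Cox4i1, a complex IV subunit on chromosome 8 and the list's highest gene by value, had 15172, 17451 and 16147 in control and 13484, 13377 and 13010.1 in treated Actr3 KO. Its groups did not overlap (-0.29 ± 0.06, adjusted p = 0.000411), and untreated Actr3 KO had 16029 ± 248.

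**Figure D3:**
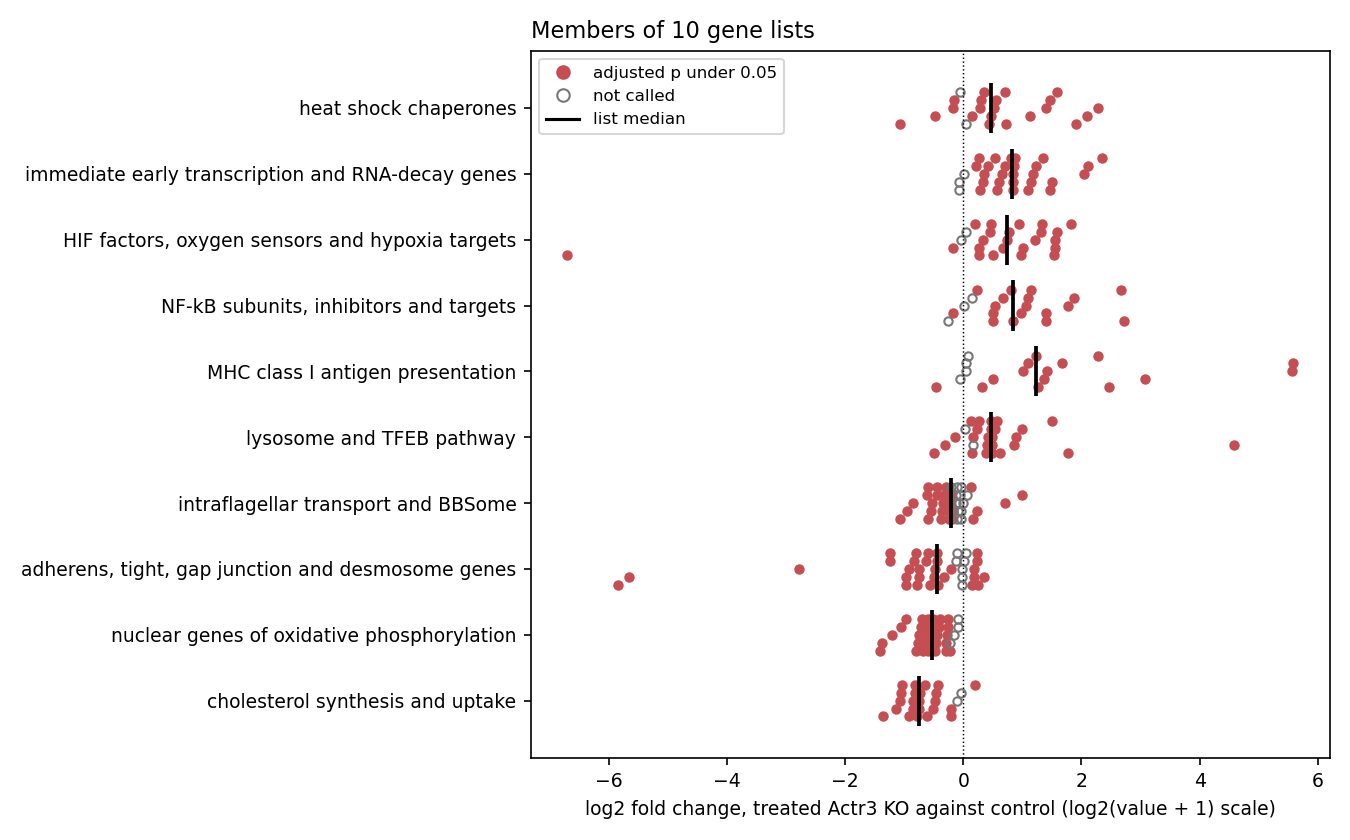
Each point is 1 tested member of a gene list at its log2 fold change, treated Actr3 KO against control (x axis, log2(value + 1) scale); filled points passed the adjusted p threshold, open ones did not, and black lines are list medians. Only 10 of the 37 lists are drawn; their medians run from 1.24 for class I antigen presentation to -0.75 for cholesterol synthesis, and single far points include Ak4 and Cldn8 on the left and Rragd on the right.

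Cholesterol synthesis genes were lower in both knockout groups. Of 25, 22 fell and 1 rose (median -0.75), and untreated Actr3 KO had 22 lower and 1 higher (median -0.54). Hmgcs1, which makes HMG-CoA, had 18826, 15255 and 15216 in control and 7236, 8339 and 6716 in treated Actr3 KO. The sterol reductase Tm7sf2 (from 1103 ± 112 to 426 ± 19.3) and mevalonate kinase (Mvk, from 1125 ± 136 to 534 ± 19) fell as well. The member that rose was Srebf2, the transcription factor of the pathway, from 26041 ± 362 to 29706 ± 768 (adjusted p = 0.0133). The CCAAT box was in 15 of 17 listed promoters with an entry and in 34.5% of all promoters.

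Lysosome and TFEB pathway genes were higher: of 27 tested of 30, 22 rose and 3 fell (median 0.46), against 14 and 6 in untreated Actr3 KO (median 0.15). Rragd, a Rag GTPase that links nutrients to mTORC1 at the lysosome, had 39.9, 24.9 and 28 in control, 823, 722 and 699 in treated and 639, 700.03 and 705 in untreated Actr3 KO. Both knockout groups were far above control. Fnip1, a folliculin partner, had 2796, 3299 and 3487 in control and 9383, 10382 and 12986 in treated Actr3 KO, with 3693 ± 92.5 untreated. The lysosomal hexosaminidase subunit Hexa rose from 1249.9 ± 170.3 to 3536 ± 248, with 3690.3 ± 25.2 untreated, and the autophagy receptor Sqstm1 from 29484 ± 2889 to 58712 ± 3438, with 18989.6 ± 1046 untreated. The CLEAR site (TCACGTGA), which holds the hypoxia core within it, was in 3 of 24 listed promoters with an entry and in 0.803% of all promoters.

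Inflammatory regulators of the NF-kB pathway were higher too. Of 21 tested of 22, 17 rose and 1 fell (median 0.84), and 9 rose at least 2-fold; untreated Actr3 KO had 14 higher and 4 lower (median 0.47). Nfkbia, the inhibitor that NF-kB itself induces, had 1326, 1573 and 1886 in control, 4875, 5219 and 6196 in treated and 2129, 2077 and 1942 in untreated Actr3 KO. The subunit Relb rose from 866 ± 79.99 to 3176 ± 441 with 1844 ± 101 untreated, Rela from 6604 ± 94.7 to 11571 ± 663, and the feedback inhibitor Tnfaip3 from 847 ± 99.9 to 2241 ± 199.6. Complement C3 rose from 149 ± 16.7 to 997 ± 373, below the untreated level of 2152 ± 246. The kappa B site (GGGA, any 2 bases, TTCC) was in 1 of 17 listed promoters with an entry and in 1.18% of all promoters. The single lower member, Sod2, was not called without control replicate 1, without the unnumbered control library or without treated replicate 2 or 3.

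Secreted signals went both ways. Of 19 tested interleukins, chemokines and colony-stimulating factors, of 26, 4 rose and 7 fell, against 2 and 13 in untreated Actr3 KO. The monocyte chemokine Ccl2 had 292, 318 and 324 in control and 3.61, 7.41 and 7.77 in treated Actr3 KO, with 31.8, 17.6 and 23.9 untreated. Cxcl10, a T cell chemokine, had 362, 389.6 and 355 in control, 1046, 1295 and 1660.4 in treated and 237, 245 and 241 in untreated Actr3 KO. Treated cells were thus the lowest group for Ccl2 and the highest for Cxcl10. Cxcl16 rose from 1028 ± 160.1 to 2972 ± 218 and the interleukin 1 receptor antagonist Il1rn from 136 ± 20.9 to 378 ± 54.9. Csf1, the macrophage growth factor, was not called (-0.08 ± 0.06, adjusted p = 0.267) but was called lower without treated replicate 1 (-0.15, adjusted p = 0.0253), as it was once the values had been quantile normalized (-0.16, adjusted p = 0.0300); untreated Actr3 KO had 12342 ± 754 against 4878 ± 153 in control. Of 10 tested prostaglandin genes, of 18, 3 rose and 4 fell, against 4 and 5 in untreated Actr3 KO. Ptgds, a prostaglandin D synthase, rose from 148 ± 9.92 to 717 ± 48.4, while the constitutive cyclooxygenase Ptgs1 fell from 207 ± 3.23 to 83.2 ± 20.7. The prostaglandin uptake carrier Slco2a1 fell from 6261 ± 529 to 3887 ± 308, the exporter Abcc4 rose from 9060.1 ± 255 to 10779.6 ± 397 and the receptor Ptger1 rose from 1077 ± 80.8 to 1534 ± 51.4. Ptgs2, the inducible cyclooxygenase, had 4138, 5069.8 and 4659.5 in control, 3262, 4655 and 5056 in treated and 109, 115 and 164 in untreated Actr3 KO; treated and control overlapped (adjusted p = 0.495). It is outside the naming rule and was chosen after its values were seen.

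Interferon genes were above control in both knockout groups. Interferon signals reach these genes through the factors ISGF3 and the IRFs, which bind GAAA repeated after a gap of 2 bases. The promoters of 3 members chosen in the same way are shown with that element (GAAA, any 2 bases, GAAA, on either strand) in capitals: chr5:120777660-120777909 on the minus strand for Oas3, chr3:142530086-142530335 on the plus strand for Gbp7 and chr12:26456453-26456702 on the minus strand for Rsad2.
Oas3: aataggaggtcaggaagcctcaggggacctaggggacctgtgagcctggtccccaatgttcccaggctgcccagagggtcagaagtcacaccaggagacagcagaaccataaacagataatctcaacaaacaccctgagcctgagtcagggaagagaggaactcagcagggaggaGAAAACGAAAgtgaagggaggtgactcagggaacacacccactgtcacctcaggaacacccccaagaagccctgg
Gbp7: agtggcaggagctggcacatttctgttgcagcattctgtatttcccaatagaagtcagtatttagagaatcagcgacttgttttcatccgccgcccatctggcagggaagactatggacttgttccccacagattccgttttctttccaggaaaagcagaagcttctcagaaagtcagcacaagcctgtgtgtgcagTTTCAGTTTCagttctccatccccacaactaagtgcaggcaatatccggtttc
Rsad2: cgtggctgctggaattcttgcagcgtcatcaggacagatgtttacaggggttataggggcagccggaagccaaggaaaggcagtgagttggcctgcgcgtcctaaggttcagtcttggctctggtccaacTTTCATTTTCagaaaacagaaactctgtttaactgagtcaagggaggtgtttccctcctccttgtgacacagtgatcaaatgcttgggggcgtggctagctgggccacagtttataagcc
Each window held 1 match, 75, 53 and 120 bases before the start. The element was in 14 of 36 listed promoters with an entry and in 3.05% of all promoters of this length.

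Of 43 tested of 48 interferon genes, 29 rose and 3 fell (median 0.53), 16 of them at least 2-fold higher, against 38 and 2 in untreated Actr3 KO (median 1.2). The antiviral synthetase gene Oas3 had 13.9, 10.7 and 7.22 in control, 97.5, 53.1 and 47.8 in treated and 194, 168 and 145 in untreated Actr3 KO. The guanylate-binding protein Gbp7 had 78, 62.3 and 55 in control, 455, 344 and 321 in treated and 759.7, 643 and 715 in untreated Actr3 KO. In both genes the treated libraries lay between the other groups, with no overlap. Rsad2 (viperin) rose from 51.6 ± 6.37 to 175 ± 31.8, Mx2 from 14.1 ± 3.75 to 59.8 ± 16 and the large ubiquitin ligase Rnf213 from 5592 ± 644 to 7883 ± 421. The 3 that fell were Ifit2, Ifit3 and Herc6, the last on chromosome 6, and 5 fell without treated replicate 1.

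Class I antigen presentation followed. Of 19 genes, 14 rose and 1 fell (median 1.24), 12 of them at least 2-fold higher, and untreated Actr3 KO had 18 higher and none lower (median 1.14). Nlrc5, the regulator that switches on class I genes, had 7.8, 7.12 and 4.51 in control, 394, 322 and 329.9 in treated and 322, 279.6 and 307 in untreated Actr3 KO. The peptide transporter Tap1 had 252, 264 and 285 in control, 1576, 1423 and 1434 in treated and 2759, 2579 and 2713 in untreated Actr3 KO. For Nlrc5 both knockout groups stood far above control and met at 322, while for Tap1 the treated libraries lay between the other groups. The class I heavy chain H2-K1 rose from 10121 ± 826 to 23911 ± 2859; H2-Q7 rose from 19.5 ± 4.32 to 170.2 ± 24.7 and H2-Q6 from 1.47 ± 1.35 to 108 ± 37.3. The H2 genes are close copies of each other, so their counts are uncertain. The member that fell, Tapbpl, is on chromosome 6 and was not called after chromosome medians were removed.

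Epithelial genes were lower. Against the label's cell type, 16 of 17 identity markers of kidney epithelium and collecting duct had a value of at least 10 in every control library and 14 in every treated one; Aqp2, the water channel of principal cells, had 0 reads in control and was not tested. Their summed level was 119400 to 125800 in control and 87370 to 89110 in treated Actr3 KO. Of 16 tested, 11 fell and 3 rose (median -0.57), against 9 and 3 in untreated Actr3 KO. E-cadherin (Cdh1), the main adhesion protein of epithelia, had 14645, 14390.2 and 15312 in control, 6775, 6004 and 6055 in treated and 12963, 13379 and 15596 in untreated Actr3 KO. Keratin 7 (Krt7) had 8661, 8973 and 8502 in control and 3499, 3698 and 3269.7 in treated Actr3 KO, with 4895 ± 283 untreated. In bulk RNA, fewer cells of a type and less RNA per cell cannot be told apart. For Cdh1 only the treated libraries stood apart, and for Krt7 the untreated mean lay between. The kidney cadherin Cdh16 rose from 18297 ± 479.9 to 24985 ± 428, with 35475 ± 1419 untreated, and the transcription factor Gata3 from 18.3 ± 2.76 to 65.9 ± 15.8.

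**Figure D4:**
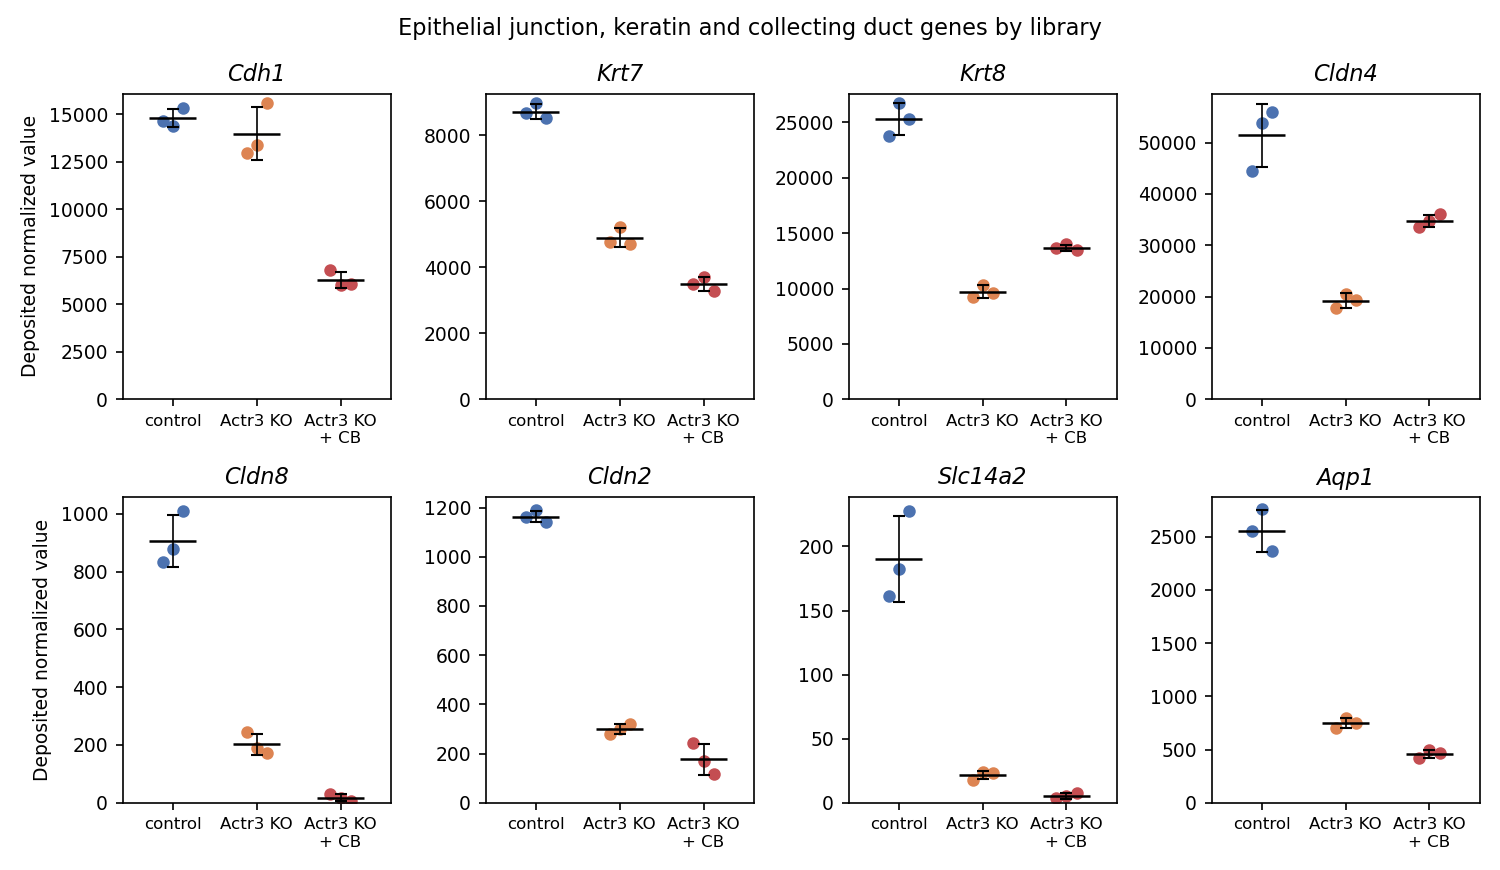
Each panel plots the deposited normalized value (y axis, linear from 0) of 1 epithelial gene in the 3 libraries of control, untreated Actr3 KO and treated Actr3 KO (+ CB), with the mean (wide line) and SD (bars). The treated libraries are below every control library in all 8 panels; for Krt8 and Cldn4 the untreated ones are lower still.

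Of 20 tested collecting duct and tonicity genes, of 29, 10 fell and 7 rose, against 11 and 4 in untreated Actr3 KO. The median in treated Actr3 KO was -0.31 and the mean -0.75. With the 5 members on chromosome 6 left out, 7 of 15 fell, 6 rose and the median was 0.06. The urea transporter Slc14a2 had 161, 182 and 227 in control and 3.61, 4.94 and 7.77 in treated Actr3 KO, with 17.9, 23.8 and 23 untreated. The sodium channel subunit Scnn1g had 101, 71.2 and 58.6 in control and 0, 2.47 and 2.22 in treated Actr3 KO, with 15.9 ± 8.62 untreated. Both were close to absent in treated Actr3 KO, and their untreated means also lay below every control value. The water channel Aqp1, on chromosome 6, fell from 2556 ± 197 to 461 ± 37.7, far more than the median of that chromosome. The tonicity factor Nfat5 rose from 26153 ± 1313 to 34975 ± 3603.

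Junction genes were mostly lower, some of them by far. Of 37 tested of 40, 23 fell and 7 rose (median -0.45, mean -0.73), against 18 and 9 in untreated Actr3 KO (median -0.15). The tight junction claudin Cldn8 had 834, 879.7 and 1008 in control, 31.3, 14.8 and 6.66 in treated and 243, 188 and 173 in untreated Actr3 KO, and Cldn2, which forms cation pores, had 1160.2, 1189 and 1141 in control and 243, 168 and 118 in treated Actr3 KO, with 301 ± 19.8 untreated. The treated libraries were the lowest for both. The connexin Gja1 had 225 ± 25.2 in control, 3.54 ± 1.19 in treated and 1.66 ± 1.15 in untreated Actr3 KO. Cldn4, the list's highest gene by value, fell from 51455 ± 6132 to 34789.9 ± 1183, with 19237 ± 1395 untreated. Of 16 tested keratin, urothelial and cornified genes, of 27, 12 fell, 8 of them at least 2-fold, and 1 rose (median -1.02). In untreated Actr3 KO 15 were lower and none higher (median -1.38). The count of higher members in treated Actr3 KO was 2 without treated replicate 2. Keratin 8 (Krt8), the simple epithelial keratin, had 23799, 26707 and 25311 in control, 13663, 13978 and 13437 in treated and 9234, 10336 and 9611 in untreated Actr3 KO. Krt20 fell from 165 ± 8.51 to 4.28 ± 1.61, the basal keratin Krt5 from 108 ± 19 to 6.8 ± 3, and the uroplakins Upk3b and Upk1a from 442 ± 14.8 to 143 ± 29.1 and from 265 ± 8.84 to 86.1 ± 4.05.

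Matrix and mesenchymal genes were split: of 34 tested of 43, 13 rose and 13 fell (median 0.06), with 6 at least 2-fold each way. Each direction held 38.2% of the list, beside 33.5% higher and 32.7% lower over all genes tested. In untreated Actr3 KO 17 were higher and 10 lower (median 0.29). The collagen genes Col6a1 and Col5a1 rose, Col6a1 with 249.7, 233 and 219 in control and 1341, 1433 and 1308 in treated Actr3 KO, and Col5a1 from 41.1 ± 2.74 to 185 ± 24.1. Zeb1, a repressor of Cdh1, had 149, 157 and 127 in control, 702, 805 and 732 in treated and 459.8, 453 and 451 in untreated Actr3 KO. Each group of Zeb1 values stood apart, with the treated one highest. The protease inhibitor Timp3 fell from 1153 ± 36.6 to 310.1 ± 55.6, and fibronectin (Fn1) was called lower (-0.33 ± 0.10, adjusted p = 0.00733), but not without treated replicate 1 (-0.23, adjusted p = 0.0600). After quantile normalization its fold change was far larger (-1.43, adjusted p = 7.97e-12). Of 25 tested TGF-beta, BMP and WNT genes, of 30, 13 rose and 5 fell (median 0.13), against 13 and 9 in untreated Actr3 KO (median 0.18). The WNT antagonist Dkk2 rose from 10.00 ± 3.36 to 84.4 ± 17.6, with 626 ± 104 untreated, Bmp7 from 112 ± 9.5 to 496 ± 49 and the WNT pathway factor Tcf7 from 343 ± 10.8 to 957 ± 50.04. The ligands Wnt4 and Wnt7b fell, from 1014 ± 28.8 to 506 ± 26 and from 13693 ± 46.6 to 7679 ± 216.

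Of 16 cystic kidney disease genes, 9 rose and 5 fell (median 0.19), against 13 and 1 in untreated Actr3 KO (median 0.54). The polycystins Pkd1 and Pkd2, which act in the cilium, rose from 3534 ± 213 to 6807 ± 124 and from 6222 ± 298 to 9951 ± 79.3, with 9632 ± 829 and 9243 ± 344 untreated. Tsc1, a brake on mTORC1, rose from 2509 ± 76 to 4844 ± 474 and the glucosidase subunit Ganab from 25958 ± 576 to 29584 ± 502. Uromodulin (Umod), a marker of the thick ascending limb, had 349, 430.5 and 511 in control, 158, 104 and 92.2 in treated and 383, 386 and 393 in untreated Actr3 KO. Only the treated group was lower. Of 24 markers of other cell types, 6 were high enough to test; 2 rose and 3 fell, and 6 of the 24 had 0 reads in all control libraries. Their summed level was 10900 to 13010 in control and 12330 to 12830 in treated Actr3 KO, mostly from Lrp2 (11264 ± 1095 and 11969 ± 279.9, not called, adjusted p = 0.316). Cd68, a macrophage marker that encodes a lysosomal protein, rose from 161 ± 16 to 332 ± 23.5, while Adgre1, another macrophage marker, had 0 reads in control and 1 in treated Actr3 KO. The markers of podocytes (Nphs1), proximal tubule (Slc34a1) and intercalated cells (Atp6v1g3) had 0 reads in both groups. The count of lower members was 1 without the unnumbered control library.

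Cell cycle genes leaned lower. Of 44 tested of 45, 23 fell and 10 rose (median -0.16), against 24 and 4 in untreated Actr3 KO (median -0.26). Cyclin D1 (Ccnd1), which links growth signals to the cycle, had 1038, 1037 and 983 in control, 302, 425 and 419.8 in treated and 102, 82.8 and 107 in untreated Actr3 KO. The treated values lay between the other groups. Cyclin D3 (Ccnd3) fell from 1873 ± 89.7 to 1222 ± 24.6, the mitotic kinase Plk1 from 3292 ± 326 to 1892 ± 253 and cyclin B2 (Ccnb2) from 2222 ± 72.8 to 1419 ± 116. The proliferation marker Mki67 was not called (0.16 ± 0.08, adjusted p = 0.0873), except without control replicate 1 (0.24, adjusted p = 0.0199).

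The 12 largest rises among all genes, under the naming rule, ran from a regulator of antigen presentation to metal-binding and cytoskeletal genes. Beside H2-Q6, Nlrc5 and Rragd above, Obsl1, a cytoskeletal adaptor, had 226, 230.4 and 196 in control, 2418, 2531 and 2506 in treated and 1909.8, 2144 and 2168 in untreated Actr3 KO. Slc35f3 rose from 7.7 ± 1.99 to 125 ± 19.9 and Apol9a from 6.79 ± 1.29 to 112 ± 19.1, with 111 ± 5.78 and 267 ± 22.1 untreated; Apol9a has a close copy, which makes its count uncertain. Angiotensinogen (Agt), the transcriptional corepressor Cbfa2t3 and the iron reductase Steap3 rose from 29.2 ± 2.96 to 347 ± 29.2, from 31.6 ± 3.81 to 456 ± 21.4 and from 7.34 ± 3.51 to 104 ± 6.81. Metallothionein 2 (Mt2), which binds zinc and copper, had 42.5, 51.6 and 58.6 in control, 728, 921 and 833 in treated and 179.8, 178 and 191 in untreated Actr3 KO. Ankrd33b had 444, 564 and 503 in control, 4972, 5414 and 7002 in treated and 863, 935 and 937 in untreated Actr3 KO. Every treated library of Mt2 and Ankrd33b was above every untreated one (treated against untreated, log2 fold change 2.17 ± 0.11, adjusted p = 8.41e-13 and log2 fold change 2.65 ± 0.09, adjusted p = 2.66e-15). Trim69 rose from 12.8 ± 6.67 to 139.8 ± 33.5 but was not called in untreated Actr3 KO (9.48 ± 5.88) (treated against untreated in the same model, log2 fold change 3.85 ± 0.39, adjusted p = 2.19e-08). Mt2, Ankrd33b and Trim69 were named for their rise over control in the same treated libraries. The p-values of treated against untreated are therefore not independent of that choice.

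The largest falls were of genes close to silent in treated Actr3 KO. Follistatin-like 1 (Fstl1), a secreted glycoprotein, had 662, 609 and 587 in control, 2.41, 2.47 and 6.66 in treated and 7.94, 8.28 and 3.83 in untreated Actr3 KO. Zfp518b had 359 reads in control and 0 in either knockout group, which is at least 89.8-fold lower in treated Actr3 KO when 3 reads in the whole group are taken as the limit. The G protein subunit Gnai1 went from 419.7 ± 28.4 to 3.86 ± 2.73, Magohb, on chromosome 6, from 195 ± 17.5 to 1.91 ± 1.72, and the transcription factor Tbx15 from 262 ± 29 to 2.73 ± 1.3. Marcks, an actin-binding protein of the plasma membrane, fell from 328 ± 14.4 to 4.6 ± 3.92, Miga1, a mitochondrial fusion regulator, from 764 ± 70.01 to 13.8 ± 2.67, and the chloride channel gene Cftr, on chromosome 6, from 328 ± 31.6 to 5.95 ± 1.4. Their untreated means were 4.62, 1.29, 1.34, 4.71, 13.1 and 3.72 in the same order. Ak4, Cldn8, Gja1 and Ccl2, given above, complete the 12 lowest.

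Genes of 1 chromosome were lower as a set. The median log2 fold change of the 623 tested genes on chromosome 6 was -0.43 in treated and -0.43 in untreated Actr3 KO, and 414 of them (66.5%) were called lower. The other medians of the treated group lay between -0.14 (chromosome X) and 0.15 (chromosome 18). Chromosome 5 had a median of -0.25 in untreated Actr3 KO and -0.02 in treated Actr3 KO. Set directly against untreated Actr3 KO, the treated group had a median of 0.22 on chromosome 5. On the other chromosomes that median lay between -0.08 (chromosome 17) and 0.05 (chromosome 1). Untreated values of genes on chromosome 5, Oas3 among them, are to be read with this difference. Its cause was not tested. After chromosome medians were removed, 8967 genes were called, 4513 higher and 4454 lower. The named genes of chromosome 6 whose fold change shrank by more than 1.5 times with this step have the smaller value beside them above, and all of these were still called lower.

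**Figure D5:**
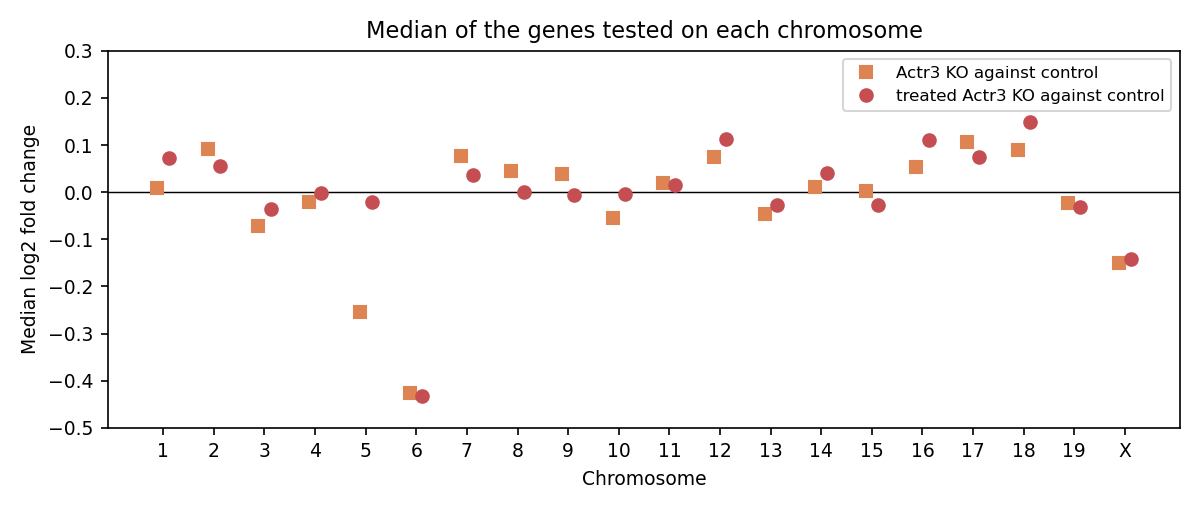
Points give the median log2 fold change (y axis) of the genes tested on each chromosome (x axis) for treated (circles) and untreated (squares) Actr3 KO, each against control. Chromosome 6 lies at -0.43 in both, and chromosome 5 at -0.25 in untreated and -0.02 in treated Actr3 KO.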

How the data were processed

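Polyadenylated RNA of 12 libraries was sequenced. Per the submitters' processing notes, the tools were DESeq2 2.11.40.7, featureCounts 2.0.1, fastp 0.23.2 and HISAT2 2.2.1, with the builds mm10 and GRCm38. The deposited table holds the authors' normalized read counts (a signal, not corrected for gene length). Dividing each column by its smallest step gave whole reads for 100% of values within 0.01 reads. Of 27179 gene IDs, 25275 were named from RefSeq tables. No source used here gives the strand setting of the counting, so overlapping and antisense genes cannot be told apart.

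Genes that reached 10 in 3 or more of the 6 libraries compared were tested on log2(value + 1) with limma 3.58.1 (R 4.3.3), all 12 libraries in 1 fit of 4 groups with 8 residual degrees of freedom, two-sided, with Benjamini-Hochberg adjustment over 13593 genes. A gene was called at an adjusted p under 0.05. Adjusted p-values in the text are from this test unless another is named. The named genes are Actr3 and Ift88, the 12 highest and 12 lowest called genes whose groups do not overlap and whose higher group has a mean of 100 or more (predicted, clone-named and pseudogene models left out), and, per list, up to 4 called members with the largest fold change (higher group mean of 50 or more) and the member with the highest mean. Some genes that the rule names are not reported here. Other genes, among them the few members that moved against their list, were chosen after their values were seen. The comparison, its 37 lists and this rule were chosen with earlier results of these data known, so list counts carry no test. Alternatives were other pseudocounts (0.5, 5), filters, scalings, edgeR 4.0.16 and DESeq2 1.42.0 on the recovered reads, a replicate block, and leaving out each library. Counts for treated Actr3 KO against control were also simulated, with 200 of 13593 genes changed, each with a mean of at least 50, in 10 draws. There 64.4% of changes of 1.25-fold were recovered, 94.4% of 1.5-fold and 100% of 2-fold, and 5.48% of calls were false. Far fewer genes changed there than the 66.2% called in the data, so these rates do not carry over to the calls above. Deviations of treated and control libraries with the same number correlated only weakly, at 0.07 for number 1 and 0.07 for number 3. Treated 1 with control 3 had -0.06, and treated 3 with control 1 had -0.08. No control column carries number 2, so that number could not be checked. The main fit did not pair the samples. Promoters of 250 bases were matched for 652 of 834 members and named genes, and 9 motifs were searched on both strands.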

Additional observations from a re-analysis of the deposited data

How the results depend on the processing

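Most of the counts held under the alternatives, and the counts of genes called at least 2-fold followed the filter. The main count was 1382 genes (790 higher, 592 lower). Without a filter on low values it was 2082 (1191 higher, 891 lower), and with a mean of at least 50 it was 830 (466 higher, 364 lower), as more or fewer low genes were tested. Leaving out 1 library at a time gave 8286 to 8815 genes called (4208 to 4458 higher, 4078 to 4357 lower), 1275 to 1463 at least 2-fold (707 to 847 higher, 568 to 616 lower) and 8988 to 9848 for untreated Actr3 KO. With the replicate block, which leaves out the control library without a number, 8323 genes were called, 1389 were at least 2-fold and 8972 were called for untreated Actr3 KO. On recovered reads edgeR called 9047 and DESeq2 8814. A fit of only the 6 libraries called 8642, TMM rescaling 9010 (4216 higher, 4794 lower), quantile normalization 9019 and the removal of chromosome medians 8967. Of 192 named genes under 17 alternatives, 12 changed their call or sign under at least 1. The only reversal was Hsp90ab1, at -0.27 (adjusted p = 0.00164) after quantile normalization; the cause was not tested. Of the list counts, 42 moved by more than 1.5 times and 1290 did not, most of those that moved being counts of 5 or fewer. Depth limits low genes: a gene with few reads in a group has a fold change that depends on the pseudocount.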
